A study of Perna viridis with 2 samples.

Results

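Genes named for muscle contractile proteins were described in the mantle of the green mussel Perna viridis. Members were chosen by product name alone. A name had to contain myosin (which also takes in tropomyosin and paramyosin), troponin, twitchin, titin, calponin, catchin, myorod, transgelin, sarcoglycan or muscle LIM, or to begin with MYH, MYL, TPM, TNN, CNN, TTN or MLCK. Names holding the letters actin were left out, which dropped 1 gene. The rule found 105 of 78458 assembled genes, and all 105 had a value in both regions. The 105 came from 78 assembly clusters, and 44 of them shared 17 clusters. Whether members sharing a cluster are parts of 1 gene was not tested, so counts of members are counts of assembled genes. No member had a name with catchin, myorod or sarcoglycan.

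Mantle regions of untreated mussels with shells of 6 to 7 cm were sequenced as bulk RNA. There were 2, the periostracal groove between the outer and middle mantle folds, where the outer organic shell layer is secreted, and the submarginal zone, which reaches inward as far as the pallial line. Each region has 1 deposited profile, made from tissue of 6 animals per sample. The genotype is given as unknown and no cell type was isolated. The design text speaks of 3 replicates, but the files hold a single value per gene and region. Each value was read as the authors' mean of 3, on the grounds given under processing. The differences below therefore come without error, replicate check or p-value. Values are TPM (a transcript's share of the profile, adjusted for its length), which keep no read depth. The header of each table names the groove sample, so the tables were told apart by the record that lists each. All directions below rest on that assignment.

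Muscle shortens when myosin motors of the thick filament pull on actin in the thin filament. In bivalve smooth muscle the thick filament has a core of paramyosin, and the motor is switched through calcium binding to myosin's light chains. Such muscle can hold tension at little cost in the state called catch, which the giant kinase twitchin regulates. Radial pallial muscles of bivalves run from the pallial line towards the mantle folds, and they were neither dissected out nor counted here. In bulk tissue, fewer muscle cells and less muscle RNA per cell cannot be told apart.

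Summed over the 105 members, transcripts made up 8083 TPM in the groove against 22396 TPM in the submarginal zone. These sums were 0.808% of all groove TPM and 2.24% of all submarginal TPM, a 2.77-fold higher sum in the submarginal zone. A few genes carried the sum. The 8 most abundant members held 92.0% of the member total in the groove against 95.7% in the submarginal zone. They were a pair of paramyosins, a pair of myosin heavy chains, a pair of light chains, calponin 1 and a transgelin, and each was lower in the groove. The remaining members summed to 651 TPM in groove tissue and 956 TPM in submarginal tissue.

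**Figure D1:**
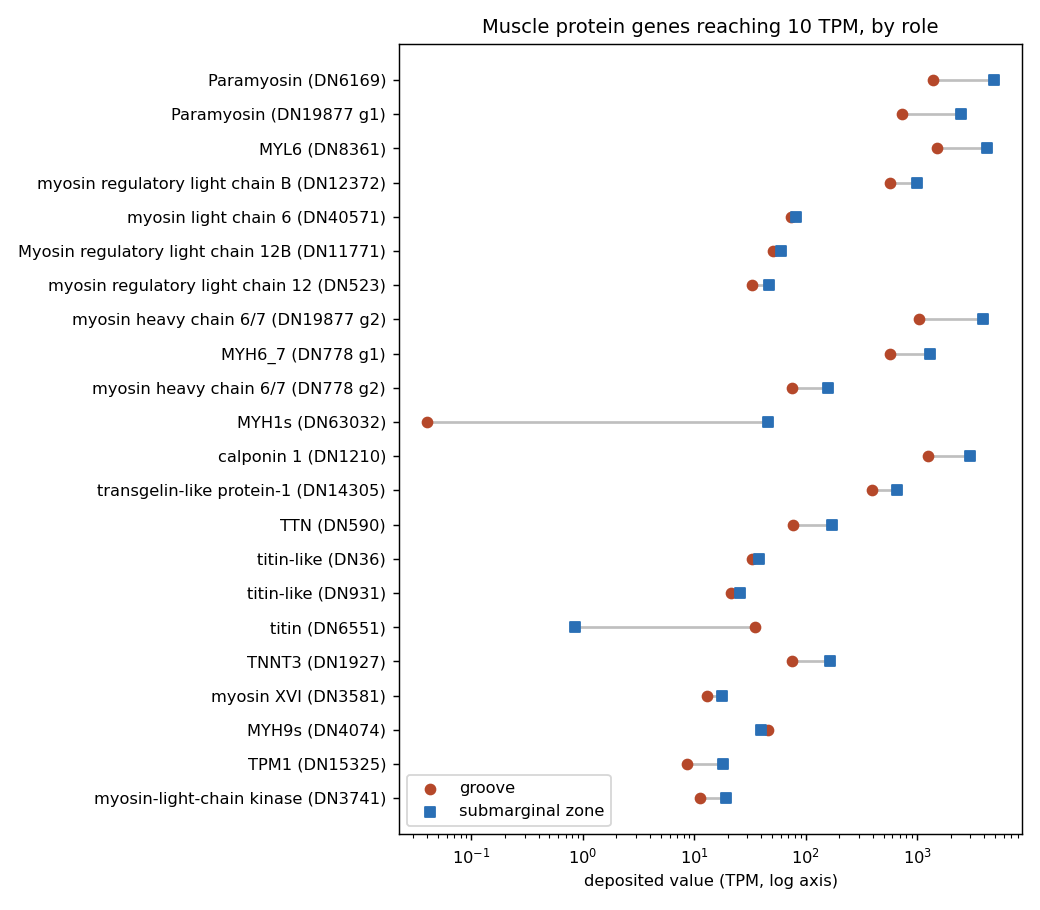
Deposited TPM (log axis) of the 22 members reaching 10 TPM in either region, ordered by role, with the groove as circles and the submarginal zone as squares; each symbol is 1 deposited value. In 20 of the 22 the groove value lies to the left, and MYH1s and titin DN6551 have the widest gaps.

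Ratios are groove over submarginal zone on the log2 scale, with 1 TPM added to each value, which understates the difference of low genes. Of the 105 members, 22 reached 10 TPM in either region and 83 did not. Of the 22, 1 had a groove value at least 4-fold higher, as 9.45% of all 5800 genes reaching 10 TPM did. Another 1 was at least 4-fold lower in the groove, where 12.4% of all genes were. Each is 4.55% of the 22, and counts this small are not read as different from the background. At 2-fold, 10 of the 22 were lower in the groove, or 45.5%, beside 27.6% of all genes, and 1 was higher, beside 15.2% of all genes. The median log2 ratio of the 22 was -0.89, and that of all 5800 genes was -0.55. In all, 20 of the 22 were lower in the groove, as were 72.4% of all genes. After median-of-ratios or upper-quartile scaling 16 of the 22 were lower, beside 60.3% and 62.8% of all genes.

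The direction went with abundance, and the abundance ranges also differed in role. All 11 members averaging 100 TPM or more were lower in the groove, with log2 ratios from -1.89 to -0.76 and a median of -1.20. The 622 genes of the whole profile in that range had a median of -0.32 with quartiles of -0.83 and 0.15. Of 26 members averaging 1 to 10 TPM, 9 were lower in the groove, and their median was 0.42. Of all genes in that range 65.5% were lower, and their median was -0.28. The 26 members were mostly unconventional myosins, titins and non-contractile names, with no paramyosin, light chain, muscle-type heavy chain, calponin or troponin. Abundance and role therefore cannot be told apart here. Over the 48 members averaging 1 TPM or more these opposite directions met at a median of -0.17, which turned to 0.14 after median-of-ratios scaling and to 0.09 after upper-quartile scaling. Those scalings raise every groove ratio by 0.36 and 0.31 on the log2 scale, and all 11 members averaging 100 TPM or more stay below 0 under both.

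**Figure D2:**
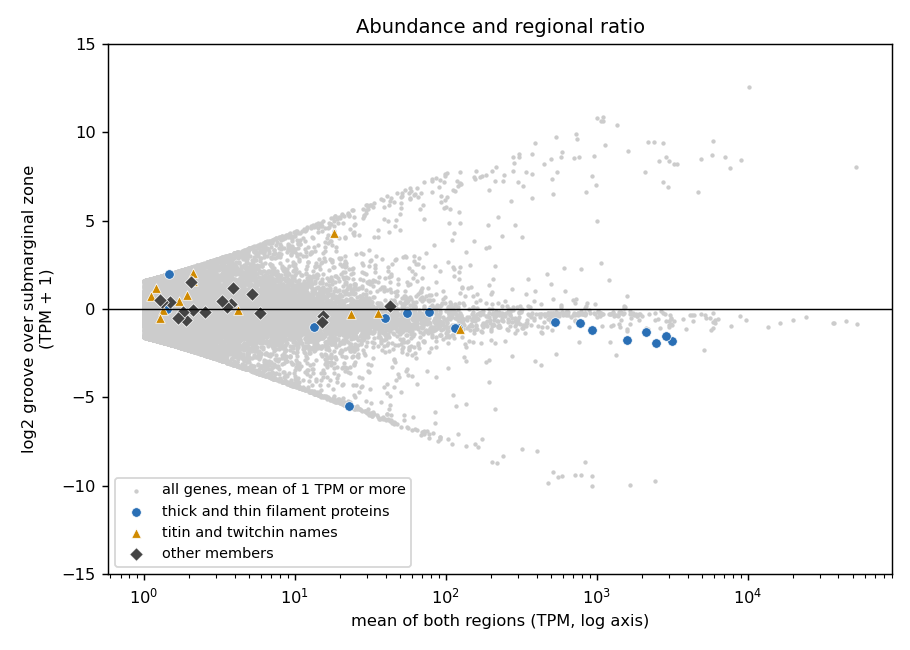
Log2 ratio of groove over submarginal zone (TPM + 1) against the mean of both regions (TPM, log axis); grey points are all genes averaging 1 TPM or more and coloured symbols are members. The members averaging 100 TPM or more all lie below 0, and those under 10 TPM lie on both sides.

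Paramyosin, the core protein of molluscan thick filaments, was the most abundant role in the submarginal zone. The leading paramyosin, TRINITY_DN6169_c1_g1, stood at 1392 TPM in the groove, compared with 4900 TPM in the submarginal zone, a log2 ratio of -1.82. A second paramyosin, TRINITY_DN19877_c0_g1, reached 737 TPM in the groove against 2456 TPM in the submarginal zone, a log2 ratio of -1.74. Both ratios lie near each other and just short of 4-fold. The third was listed at 0 in the groove and had 1.02 TPM in the submarginal zone. Summed, the paramyosins had 2129 TPM in groove tissue and 7357 TPM in submarginal tissue, 3.46-fold higher in the submarginal zone.

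Myosin heavy chains carry the motor head and the rod that packs into the thick filament. Of 15 heavy chains with muscle-type or unspecified names, 4 reached 10 TPM and all 4 were lower in the groove. The most abundant, a myosin heavy chain 6/7 (TRINITY_DN19877_c0_g2), had 1043 TPM in the groove, compared with 3876 TPM in the submarginal zone. It shares an assembly cluster with the second paramyosin, so reads of the pair may have been divided between them. MYH6_7 (TRINITY_DN778_c0_g1) had 565 TPM in the groove against 1304 TPM in the submarginal zone. Its cluster partner TRINITY_DN778_c0_g2, also named myosin heavy chain 6/7, had 74.7 TPM in groove tissue and 157 TPM in submarginal tissue. These last 2 had log2 ratios of -1.20 and -1.06, against -1.89 for the first.

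MYH1s (TRINITY_DN63032_c0_g1) was the heavy chain with the widest regional gap. It had 0.04 TPM in the groove, compared with 45.5 TPM in the submarginal zone, a log2 ratio of -5.48 that ranged from -8.35 to -3.33 with pseudocounts of 0.1 and 5 TPM. It was the 1 member at least 4-fold lower in the groove. The other 11 muscle-type heavy chains had at most 1.40 TPM. Of these, 7 were listed at 0 in the groove against 3 in the submarginal zone. Among all 47508 genes above 0 and no higher than these, 12.0% were listed at 0 in the groove, compared with 15.2% in the submarginal zone. The 7 came from 3 assembly clusters, 6 of them from 2, and 4 best matched flatworms, a rotifer or a nematode. Of the 3, 2 best matched a bryozoan or a hemichordate.

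Light chains bind the neck of the myosin head, and in molluscs they hold the calcium switch. Of 9 members, 5 reached 10 TPM. MYL6, by name an essential light chain, had 1495 TPM in groove tissue and 4253 TPM in submarginal tissue, a log2 ratio of -1.51. Regulatory light chain B of smooth adductor muscle had 571 TPM in the groove, compared with 991 TPM in the submarginal zone, a log2 ratio of -0.79. The less abundant light chains were nearer to even. Myosin light chain 6 (TRINITY_DN40571_c0_g1) had 73.9 TPM in the groove against 82.0 TPM in the submarginal zone. A gene whose name joins regulatory light chain 12B with calmodulins had 51.1 TPM in groove tissue and 59.5 TPM in submarginal tissue, and both this gene and light chain 6 turned to slightly higher in the groove after median-of-ratios or upper-quartile scaling. Regulatory light chain 12 had 32.8 TPM in the groove, compared with 46.9 TPM in the submarginal zone. Without MYL6 the summed log2 ratio of the light chains moved from -1.29 to -0.70.

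Calponin and transgelin bind actin filaments in smooth muscle. Calponin 1 had 1238 TPM in the groove against 2999 TPM in the submarginal zone, a log2 ratio of -1.28. Transgelin-like protein-1 (TRINITY_DN14305_c0_g2) had 391 TPM in groove tissue and 662 TPM in submarginal tissue, a log2 ratio of -0.76. Their sums were 1630 TPM in the groove, compared with 3661 TPM in the submarginal zone, and the other 2 members stayed below 1 TPM.

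Tropomyosin and troponin, which in striated muscle block and unblock myosin's sites on actin, were far less abundant under these names. TNNT3, a troponin T, was the 1 troponin and had 75.8 TPM in the groove against 164 TPM in the submarginal zone, a log2 ratio of -1.10. No gene was named troponin C or troponin I. The leading tropomyosin, TPM1 (TRINITY_DN15325_c0_g1), had 8.64 TPM in groove tissue and 18.2 TPM in submarginal tissue. All 6 tropomyosin names together had 14.0 TPM in the groove, compared with 21.3 TPM in the submarginal zone, and without TPM1 the sum turned to higher in the groove, with a log2 ratio of 0.79. The 3 that best matched molluscs summed to 10.4 TPM in the groove against 20.4 TPM in the submarginal zone, a log2 ratio of -0.97. Only named genes could be members, so tropomyosin transcripts without a product name were not counted.

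Levels were then set against the muscle-type heavy chains within each region. Per heavy chain TPM, paramyosin stood at 1.26 in the groove against 1.37 in the submarginal zone. Light chains stood at 1.32 in groove tissue and 1.01 in submarginal tissue, and calponin with transgelin at 0.966 in the groove, compared with 0.680 in the submarginal zone. Paramyosin therefore kept its ratio to heavy chain most closely, with a log2 difference of -0.11, and calponin with transgelin differed by 0.51. The second paramyosin and the leading heavy chain share an assembly cluster, and whether reads divided between them bear on the paramyosin ratio was not tested. Tropomyosin names stood at 0.0083 per heavy chain TPM in the groove against 0.0040 in the submarginal zone, a log2 difference of 1.07. The 3 that best matched molluscs stood at 0.0062 in groove tissue and 0.0038 in submarginal tissue, a log2 difference of 0.70. These ratios hold under any common scaling of a region.

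**Figure D3:**
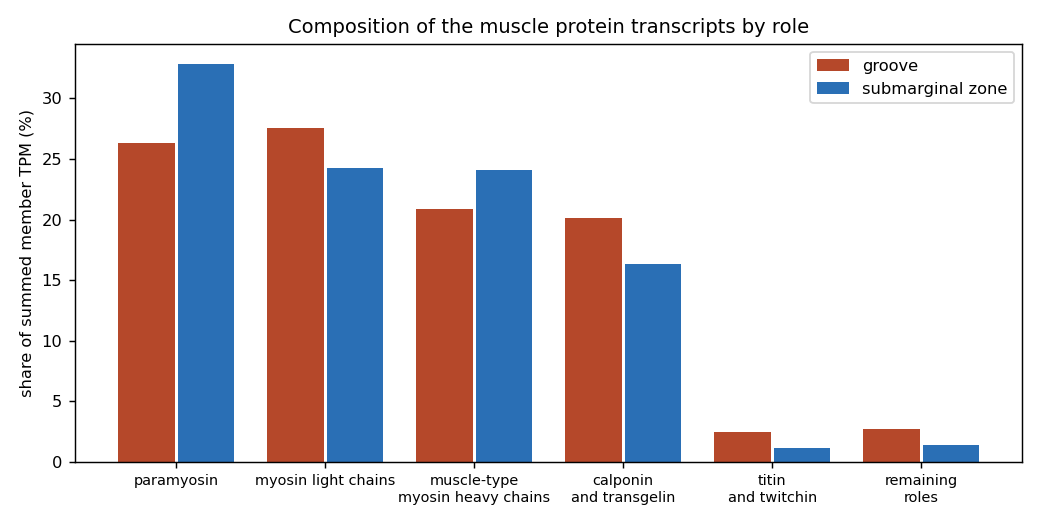
Share of summed member TPM (%) by role, with the groove left of the submarginal zone. Bars come from single deposited profiles, without replicate values. Paramyosin made up 26.3% in the groove against 32.9% in the submarginal zone, while light chains made up 27.5% in groove tissue and 24.3% in submarginal tissue.

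Titin and twitchin are giant kinases that span or brace the filaments, and they formed the role with the most members. The role had 33 assembled genes from 26 assembly clusters, so its counts may take in parts of the same gene. Of the 33, 31 carried a titin name and 2 a twitchin name. In all, 4 of the 33 reached 10 TPM. TTN (TRINITY_DN590_c0_g1) had 76.3 TPM in the groove, compared with 171 TPM in the submarginal zone, a log2 ratio of -1.15. Titin-like genes TRINITY_DN36_c0_g1 and TRINITY_DN931_c0_g1 were near even. The first had 32.7 TPM in the groove against 37.9 TPM in the submarginal zone, and the second 21.2 TPM in groove tissue and 25.8 TPM in submarginal tissue. Both turned to slightly higher in the groove after median-of-ratios or upper-quartile scaling.

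Titin TRINITY_DN6551_c0_g1 went the other way, with 35.3 TPM in the groove, compared with 0.84 TPM in the submarginal zone. Its log2 ratio was 4.30 (2.78 with a pseudocount of 5 TPM and 5.23 with 0.1 TPM), and it was the 1 member at least 4-fold higher in the groove. Lower titins also included genes higher in the groove. TTN TRINITY_DN1355_c0_g2 had 4.02 TPM in the groove against 0.23 TPM in the submarginal zone, and TTN TRINITY_DN38447_c0_g1 had 3.68 TPM in groove tissue and 0.56 TPM in submarginal tissue; both were named after their values were seen. The 29 titin and twitchin genes under 10 TPM summed to 31.6 TPM in the groove, compared with 17.5 TPM in the submarginal zone, and 19 of them were higher in the groove and 10 lower. Of all genes above 0 but under 10 TPM in both regions, 43.6% were higher and 56.2% lower. Among the 9 of the 29 that averaged 1 TPM or more, 6 were higher in the groove and 3 lower. Of all genes averaging 1 to 10 TPM, 65.5% were lower in the groove. The role's summed log2 ratio was -0.36, became 0.56 without TTN TRINITY_DN590_c0_g1 and 0.0023 after median-of-ratios scaling, so it had no fixed direction. Titin-type names rest on repeated immunoglobulin and fibronectin domains that other proteins share, and whether each of these genes belongs to muscle was not tested. The 2 twitchin-like genes stayed under 1 TPM in both regions.

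**Figure D4:**
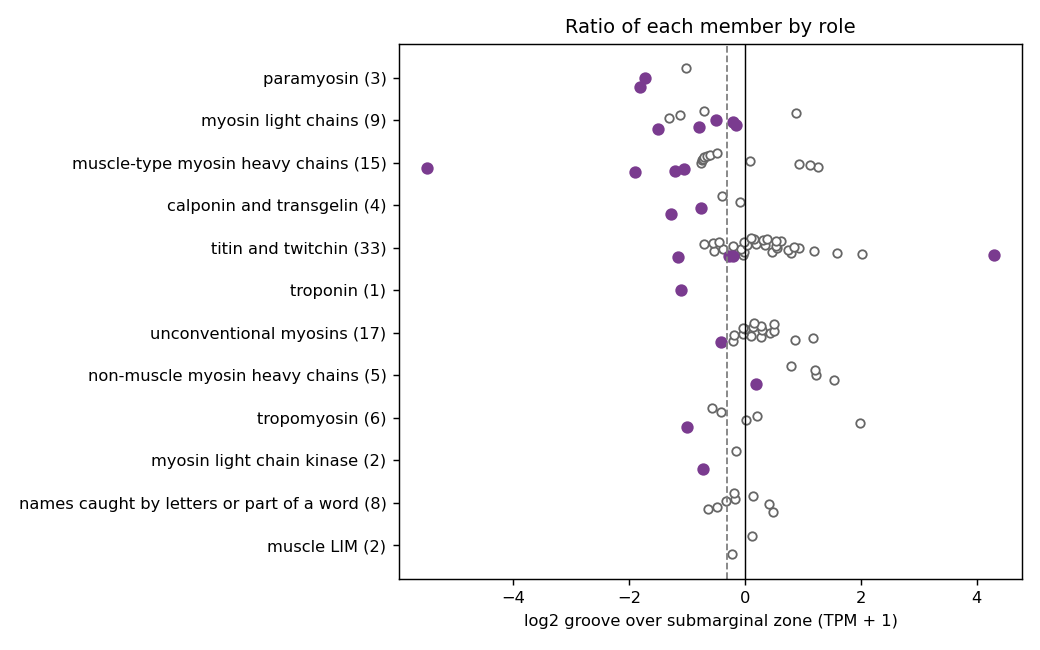
Log2 ratio of groove over submarginal zone (TPM + 1) of each of the 105 members by role, with the number of members in brackets; filled circles reach 10 TPM in either region and open circles do not. The dashed line is the median of -0.31 over all genes averaging 1 TPM or more. Filled circles of paramyosin, light chains, muscle-type heavy chains, calponin with transgelin and troponin lie left of 0, and the 1 of non-muscle heavy chains does not.

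Myosin heavy chains of non-muscle type were near even or low. MYH9s (TRINITY_DN4074_c0_g1), named for the heavy chain of non-muscle myosin II that drives cell shape and division, had 45.4 TPM in the groove against 39.8 TPM in the submarginal zone, a log2 ratio of 0.19. It was the 1 mollusc match of the role. The other 4 had at most 3.55 TPM, best matched other animals and came from 2 assembly clusters, which also held 2 of the muscle-type names above (MYH11 and a smooth muscle myosin heavy chain). Each of the 4 was higher in the groove. The summed log2 ratio of all 5 was 0.37, and 3.58 without MYH9s. Per muscle-type heavy chain TPM, MYH9s alone stood at 0.027 in groove tissue and 0.0074 in submarginal tissue, a log2 difference of 1.87.

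Unconventional myosins, which move cargo or shape membranes along actin, were likewise near even. The 17 members summed to 49.5 TPM in the groove, compared with 44.4 TPM in the submarginal zone. Myosin XVI had 13.0 TPM in the groove against 17.6 TPM in the submarginal zone and was the 1 unconventional myosin reaching 10 TPM. Of the 10 that reached 1 TPM in either region, 6 were higher in the groove and 4 lower, with log2 ratios from -0.41 to 1.18. Myosin VII, with 6.99 TPM in groove tissue and 3.38 TPM in submarginal tissue, and a gene named unconventional myosin-IXb (TRINITY_DN11500_c0_g1), with 5.81 TPM in the groove, compared with 2.0 TPM in the submarginal zone, were the most uneven of these; both were named after their values were seen.

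Myosin light chain kinase phosphorylates the regulatory light chain. The gene named myosin-light-chain kinase had 11.2 TPM in the groove against 19.2 TPM in the submarginal zone, a log2 ratio of -0.73. MYLK had 1.66 TPM in groove tissue and 1.96 TPM in submarginal tissue. Muscle LIM protein, a Z-disc scaffold in flies and vertebrates, stayed under 1 TPM under that name. Its 2 genes share an assembly cluster and had 0.64 and 0.73 TPM in the groove, compared with 0.91 and 0.60 TPM in the submarginal zone. Genes named otherwise, such as cysteine and glycine-rich protein (TRINITY_DN11249_c0_g1), fell outside the name rule. That gene had 80.0 TPM in the groove against 111 TPM in the submarginal zone and was named after its values were seen.

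The name rule also took in 8 genes that are not contractile proteins, none above 4.01 TPM. They included the ubiquitin ligase MYLIP, with 4.01 TPM in the groove against 2.60 TPM in the submarginal zone, and the methyltransferase TPMT (TRINITY_DN34947_c0_g1), with 1.27 TPM in groove tissue and 2.52 TPM in submarginal tissue. The rest were a second TPMT, 3 CNNM genes, the kinase TNNI3K and a protein with a calponin homology domain. Without these 8 and the unconventional myosins, 80 members were left. Counts at 4-fold did not change with them left out.

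The low members differed by region with the organism of their best database match, a grouping made after the values were seen. Of the 105 members, 87 were best matched to molluscs and 18 to other animals, and none of the 18 exceeded 3.55 TPM. The 8 members matched to flatworms (6), a rotifer (1) or a nematode (1) were all listed at 0 in the groove and summed to 6.60 TPM in the submarginal zone. They were a pair of regulatory light chains in 1 assembly cluster, 1.50 TPM and 1.17 TPM in the submarginal zone, a paramyosin, a tropomyosin and 4 myosin heavy chains. The 10 members matched to chordates, a hemichordate, an echinoderm, a bryozoan or an arthropod were all higher in the groove. They summed to 14.6 TPM in the groove, compared with 1.52 TPM in the submarginal zone, and 6 of the 10 were listed at 0 in the submarginal zone. A tropomyosin matched to a lancelet led those 6, with 2.94 TPM in the groove.

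The same matches were counted over the whole profile, with the members themselves included. The genera are those of the members, so these counts are no independent background. For the nematode, hemichordate and arthropod genera the member was the only gene. Among all 92 genes above 0 that matched the same flatworm, rotifer and nematode genera, 72.8% were listed at 0 in the groove against 3.26% in the submarginal zone. Over all 76629 genes above 0 in either region, 9.61% were listed at 0 in groove tissue and 10.9% in submarginal tissue. Of 128 genes matched to the chordate and other genera of the second group, 9.38% were listed at 0 in the groove, compared with 25.8% in the submarginal zone. Of these 128, 82 were higher and 46 lower in the groove. Their sum went the other way, at 325 TPM in the groove against 901 TPM in the submarginal zone. Of the 87 mollusc-matched members, 5 were listed at 0 in the groove against 7 in the submarginal zone. From which animal these low transcripts come was not tested. With mollusc matches alone, the summed log2 ratio of the members was still -1.47.

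**Figure D5:**
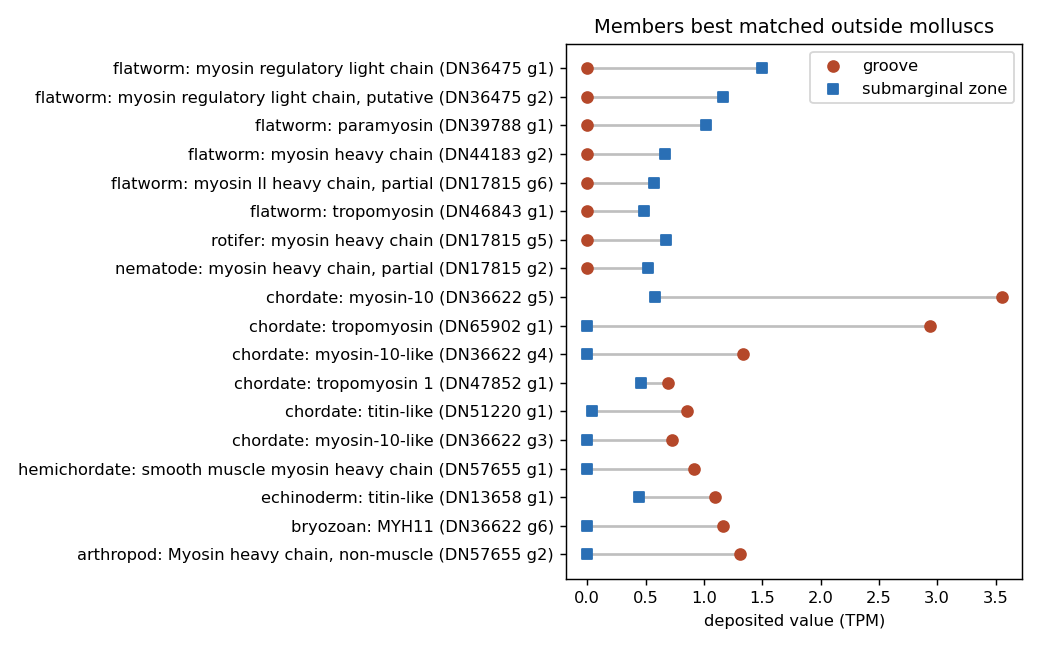
Deposited TPM of the 18 members whose best match is not a mollusc, with the groove as circles and the submarginal zone as squares. All 8 flatworm, rotifer and nematode matches are at 0 in the groove, and all 10 others are higher in the groove.

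Partner genes of contraction were read from lists of names. Beside each count below, 72.4% of all genes reaching 10 TPM were lower in the groove (60.3% and 62.8% after median-of-ratios and upper-quartile scaling), 12.4% were lower by at least 4-fold and 9.45% higher by that much. The calcium-handling list held genes far lower in the groove beside others near even. Among its 12 genes that reached 10 TPM, 10 were lower in the groove (9 after either scaling) and 2 higher, with 6 lower by at least 4-fold and none higher by that much. The median log2 ratio over its 20 genes averaging 1 TPM or more was -0.70, beside -0.31 for all such genes. The most abundant, a sarcoplasmic calcium-binding protein (TRINITY_DN7479_c0_g2), which buffers calcium in invertebrate muscle, had 378 TPM in groove tissue and 2287 TPM in submarginal tissue. The other 5 at 4-fold, named after their values were seen, were 3 further sarcoplasmic calcium-binding proteins and 2 sodium/calcium exchangers of family SLC8A. The calcium pump of the sarcoplasmic reticulum (TRINITY_DN15066_c0_g2) had 64.9 TPM in the groove, compared with 139 TPM in the submarginal zone, a log2 ratio of -1.09. A second gene of the pump's cluster (TRINITY_DN15066_c0_g1) had 13.7 TPM in the groove against 14.4 TPM in the submarginal zone. The 2 higher in the groove were SLC8A TRINITY_DN1479_c0_g1, with 12.5 TPM in groove tissue and 6.71 TPM in submarginal tissue, and a sarcoplasmic calcium-binding protein, TRINITY_DN4588_c0_g1, with 12.3 TPM in the groove, compared with 10.2 TPM in the submarginal zone; these 3 genes were named after their values were seen.

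Anchors of the thin filament had a median of -0.45, beside -0.31 for all genes. All 12 that reached 10 TPM were lower in the groove (11 after median-of-ratios or upper-quartile scaling), none by 4-fold. The Z-disc protein LDB3 (TRINITY_DN319_c0_g1) had 253 TPM in the groove against 479 TPM in the submarginal zone, and ACTN1_4, an alpha-actinin that crosslinks thin filaments, had 101 TPM in groove tissue and 222 TPM in submarginal tissue. Arginine kinase, which buffers ATP in mollusc muscle, had 182 TPM in the groove, compared with 412 TPM in the submarginal zone under the name arginine kinase-like protein-1. A second gene, annotated E2.7.3.3 (TRINITY_DN13213_c0_g2), had 3.08 TPM in the groove against 1662 TPM in the submarginal zone. Of 3 such kinases reaching 10 TPM, 1 was higher and 1 was lower in the groove by at least 4-fold. The 1 higher, also annotated E2.7.3.3 (TRINITY_DN3353_c0_g1), had 35.9 TPM in the groove against 0.73 TPM in the submarginal zone. It was named after its values were seen.

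Actins summed to 76758 TPM in groove tissue and 115878 TPM in submarginal tissue, a log2 ratio of -0.59, where the members had -1.47. The leading actin 1 (TRINITY_DN59302_c0_g1) had 20278 TPM in the groove, compared with 28237 TPM in the submarginal zone. The next, TRINITY_DN60598_c0_g1, had 5105 TPM in the groove against 7562 TPM in the submarginal zone. Of 24 actins reaching 10 TPM, 23 were lower in the groove (22 after median-of-ratios or upper-quartile scaling) and 1 was higher. The 1 higher, named non-muscle actin (TRINITY_DN8360_c0_g1), differed by at least 4-fold, with 603 TPM in the groove against 35.2 TPM in the submarginal zone. ACTB_G1 was lower by at least 4-fold, with 0.46 TPM in the groove against 326 TPM in the submarginal zone. Both were named after their values were seen. Actins serve all cells, and muscle and cytoplasmic forms were not told apart by most of these names. Most of the 24 are named partial, and whether they are parts of fewer genes was not tested.

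The lists for contraction signalling and the dystrophin complex had medians of -0.15 and -0.08. Of 4 signalling genes reaching 10 TPM, 3 were lower in the groove and 1 was higher. Of the 3, 1 was at least 4-fold lower, a second PPP1C gene. The phosphatase subunit PPP1C (TRINITY_DN17802_c0_g1) had 42.5 TPM in groove tissue and 63.3 TPM in submarginal tissue. The GTPase RHOA (TRINITY_DN5027_c0_g2) had 19.5 TPM in the groove, compared with 35.9 TPM in the submarginal zone. A second RHOA of the same assembly cluster (TRINITY_DN5027_c0_g1) went the other way, with 21.0 TPM in the groove against 15.6 TPM in the submarginal zone. It was named after its values were seen. Of 3 dystrophin-list genes reaching 10 TPM, 2 were lower in the groove and 1 was higher, none by 4-fold. After median-of-ratios scaling 1 was lower, and after upper-quartile scaling 2. MYOF, a membrane repair protein, had 9.71 TPM in the groove against 12.4 TPM in the submarginal zone, and DTNBP1, caught by its letters, had 6.14 TPM in groove tissue and 13.4 TPM in submarginal tissue. The 1 higher was DAG1, with 10.5 TPM in the groove against 8.23 TPM in the submarginal zone. DAG1 was named after its values were seen. No muscle transcription factor or myosin chaperone of the list reached 10 TPM.

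Markers of other cell types also differed between the regions, and their part in the muscle values was not tested. All 39 cilia genes reaching 10 TPM were lower in the groove, 9 of them by at least 4-fold. Their names include cilia- and flagella-associated and outer dense fiber proteins, so the list does not set ciliated cells apart from sperm. Cilia genes summed to 549 TPM in the groove, compared with 1609 TPM in the submarginal zone. Of the 122, 14 were listed at 0 in groove tissue and 10 in submarginal tissue. The list was led by enkurin (29.8 TPM in the groove against 113 TPM in the submarginal zone). Tektin-2 was next (25.7 TPM in groove tissue and 106 TPM in submarginal tissue). Of 12 genes reaching 10 TPM on the germ-cell list, 3 are not germ-cell markers: DDX46 and DDX47, RNA helicases caught by the letters DDX4, and TDRD3. The other 9 were all at least 4-fold lower in the groove, and the 3 were lower by less. Of the 9, all but PIWIa reached 10 TPM in the submarginal zone alone. The full list summed to 115 TPM in the groove against 650 TPM in the submarginal zone, with a median log2 ratio of -1.26. TDRD3 and such helicases were then left out, a choice made after the values were seen. The 32 genes left summed to 47.3 TPM in the groove, compared with 540 TPM in the submarginal zone. Of the 32, 2 were listed at 0 in groove tissue and none in submarginal tissue. The 32 were led by TSSK (TRINITY_DN20338_c0_g1), a testis-specific kinase with 0.10 TPM in the groove against 144 TPM in the submarginal zone. PIWIa was next, with 19.3 TPM in groove tissue and 95.6 TPM in submarginal tissue. Haemocyte peptides summed to 1452 TPM in the groove, compared with 2419 TPM in the submarginal zone. All 12 reaching 10 TPM were lower in the groove (8 after either scaling), 1 of them by at least 4-fold, led by mytilin 8 (545 TPM in the groove against 889 TPM in the submarginal zone) and mytilin 3 (243 TPM in groove tissue and 626 TPM in submarginal tissue). List medians, beside -0.31 for all genes, were -0.999 for cilia, -1.81 for those germ-cell genes, -0.47 for haemocytes and -0.49 for neurons. None of 6 neuron genes was 4-fold apart, with the APGW-amide-related neuropeptide at 43.9 TPM in the groove, compared with 108 TPM in the submarginal zone, and CHRNA3 at 53.9 TPM in the groove against 23.8 TPM in the submarginal zone.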

How the data were processed

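Per the labels' protocols, DNase-treated mantle RNA went into Illumina TruSeq libraries. The authors deposited 1 TPM value per assembled gene and region. Per the submitters' processing notes fastp was used, with the assembler, quantifier and database not given in the sources used here. Multiplied by 300, every value is whole to within 0.002, as means of 3 values with 2 decimals would be. The values were therefore read as the authors' means. Genes without a value (5) were dropped. Samples were grouped by their titles.

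Log2 ratios used a pseudocount of 1 TPM, counts a minimum of 10 TPM in either region, and list medians a mean of at least 1 TPM. No test was made with 1 sample per region. Members, roles and lists were chosen with earlier results of these data known. Named genes were members reaching 10 TPM, the 2 highest of each role without one, and the 2 highest of each other list among those reaching 10 TPM. Alternatives were other pseudocounts, minimums, fold thresholds, scalings and member sets. Depth is unknown, so no counting interval is given. Calculations ran in Python 3.11.15 with pandas 2.3.3 and numpy 2.4.6, and plots in matplotlib 3.10.9. No genome or sequence was used.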

Additional observations from a re-analysis of the deposited data

How the results depend on the processing

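Of 39 comparisons of whole-list values with an alternative, 34 kept their direction and stayed within 1.5 times, the tolerance used in place of replicate spread. With no minimum, 2 members were 4-fold higher in the groove. At 2-fold, 10 members were lower in the groove. The list median was 0.14 after median-of-ratios and 0.088 after upper-quartile scaling, and -0.78 over members averaging 5 TPM or more.

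Role sums turned for titin and twitchin (0.56 without the most abundant member, 0.0023 with median of ratios), tropomyosin (0.79 without the most abundant member), muscle LIM (0.28 without the most abundant member, 0.22 and 0.16 with median of ratios and upper quartile) and non-contractile names (0.26 and 0.21 with the same scalings). Genes that turned with median of ratios and upper quartile were myosin light chain 6 (0.21 and 0.15), the light chain 12B gene (0.14 and 0.085), titin-like TRINITY_DN36_c0_g1 (0.14 and 0.090) and TRINITY_DN931_c0_g1 (0.072 and 0.018). The cause was not tested, beyond the scalings' common upward shift. The mollusc-only set was chosen after seeing the data. No paired analysis was possible because each region has 1 deposited profile. Depth is unknown, so values near 0 TPM have no stated precision.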
